A study of Mus musculus with 4 samples.

Results

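In mouse liver, 1221 promoter regions were called as bound by both the glucocorticoid receptor (GR) and E2A. They were chosen by the called peaks themselves. Peaks of the 2 GR samples that shared at least 1 bp were merged into 8795 GR regions, and peaks of the 2 E2A samples into 4783 E2A regions. A GR region of under 1500 bp was kept when it shared at least 1 bp with an E2A region and at least 1 of its GR peaks was annotated as promoter. The peak calls, their widths, the overlap and the promoter annotation therefore describe these regions and are given below without a test. Of the 4284 GR promoter regions under that width, 28.5% met an E2A region (95% Wilson interval 27.2 to 29.9%). The study asked whether the bHLH factor E47 shares binding sites with GR in liver. Both ChIPs were made from livers of male C57BL/6 mice with the genotype E47+/+, 10 to 16 weeks of age, on chow, collected 10 h after lights on (ZT10) and without treatment by the labels. A further description of the same lists calls the livers Dex-treated, and which of them holds was not tested. The descriptions of both E2A samples name a GR ChIP, and that of the second also names an E47 mutant, whereas titles, antibody and genotype give E2A in wild type, which was followed. The E2A antibody recognises products of the gene Tcf3, E12 as well as E47. Whole liver was used, so peaks can come from any of its cells.

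GR is a nuclear receptor that moves to the nucleus when it binds glucocorticoids, hormones that raise hepatic glucose output and lipid synthesis. It binds glucocorticoid response elements (GREs) directly, or reaches DNA through other factors. E2A proteins are basic helix-loop-helix factors that dimerise and bind E-Boxes, and they are known above all for lymphocyte development. A promoter surrounds the transcription start site of a gene, and many mammalian promoters lie in CpG islands, GC-rich stretches that keep their CpG dinucleotides and often carry SP/KLF, NFY, CRE, NRF1 or ETS motifs.

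The sequences of some members are given as examples, picked for a motif they hold, and are not typical of the members. In 200 bp at the GR centre, CACGTG was found in 6.88% of members, CAGCTG in 9.34%, SP/KLF in 20.97% and the CRE in 3.60%. Each sequence was taken from the stretch shared by the GR and E2A regions, outside annotated exons. It is written 5′ to 3′ on the strand of the nearest gene in mm10, with the matched motif in capitals. The first 4 hold the E-Box CACGTG and belong to an insulin receptor adaptor (Irs1, chr1:82291524-82291579 (minus strand)), a clock repressor (Per1, chr11:69094858-69094913 (plus strand)), a glucocorticoid-induced Krüppel-like factor (Klf9, chr19:23140878-23140933 (plus strand)) and a mitophagy receptor (Bnip3, chr7:138909584-138909639 (minus strand)).
Irs1: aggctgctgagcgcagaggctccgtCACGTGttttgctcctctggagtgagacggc
Per1: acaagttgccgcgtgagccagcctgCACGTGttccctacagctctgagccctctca
Klf9: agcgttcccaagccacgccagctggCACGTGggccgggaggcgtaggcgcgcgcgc
Bnip3: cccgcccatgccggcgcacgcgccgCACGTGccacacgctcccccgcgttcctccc
The retinoid X receptor gene Rxra (chr2:27676271-27676326 (plus strand)) holds the E-Box CAGCTG.
Rxra: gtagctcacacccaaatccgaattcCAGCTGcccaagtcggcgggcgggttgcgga
The next 4 were chosen after the motif counts were seen, because their shared stretch holds SP/KLF or CRE letters. Counted in 200 bp at the GR centre, those motifs separated the members from promoters with GR only. Of the 4 matches shown, only that of Pik3r1 lies in that window. The 4 sequences come from a regulatory subunit of PI3-kinase (Pik3r1, chr13:101768219-101768277 (minus strand)), a histone methyltransferase (Kmt2a, chr9:44881297-44881355 (minus strand)), a chaperone of GR (Hsp90ab1, chr17:45573362-45573419 (minus strand)) and a cytokine receptor kinase (Jak1, chr4:101265292-101265349 (minus strand)).
Pik3r1: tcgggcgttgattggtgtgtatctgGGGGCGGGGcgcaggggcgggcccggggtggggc
Kmt2a: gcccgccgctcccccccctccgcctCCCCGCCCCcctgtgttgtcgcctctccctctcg
Hsp90ab1: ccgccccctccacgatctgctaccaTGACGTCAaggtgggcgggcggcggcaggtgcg
Jak1: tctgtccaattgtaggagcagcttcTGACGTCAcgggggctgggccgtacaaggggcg
The last pair, also chosen after the counts were seen, holds matches to the GRE with 1 mismatch and lies at Bsdc1 (chr4:129461312-129461356 (plus strand)) and Plpp3 (chr4:105157137-105157181 (plus strand)). The GRE pattern allows alternative letters at some positions, so mismatches here are not counted against a single fixed sequence.
Bsdc1: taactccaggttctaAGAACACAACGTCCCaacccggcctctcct
Plpp3: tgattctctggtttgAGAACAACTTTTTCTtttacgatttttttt
Counted from the start site, with negative values upstream, the CACGTG match lay at -332 bp in Per1, -321 bp in Klf9, -135 bp in Irs1 and -105 bp in Bnip3. The CRE of Jak1 lay at -38 bp and the SP/KLF match of Kmt2a at -30 bp. At Klf9 the CAGCTG and CACGTG matches lay side by side, from 23140896 to 23140901 and from 23140903 to 23140908 on chromosome 19.

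The peak lists held from 1892 to 7334 peaks per sample and give neither heights nor q-values nor numbers of reads. Depth at a peak and the strength of binding are therefore unknown, and intervals of shares cover counting error only. The GR samples differed in their lists, with 34.3% of the 4291 peaks of replicate 1 and 57.4% of the 7334 peaks of replicate 2 annotated as promoter. Among E2A peaks these shares were 41.2% of 4028 and 37.1% of 1892. The replicate numbers are those of the labels, which run opposite to the names of the deposited GR lists.

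Most members were called in 2 or 3 of the 4 samples. GR replicate 1 had a peak in 567 members (46.4%) and GR replicate 2 in 1160 (95%), while E2A replicate 1 had a peak in 1120 (91.7%) and E2A replicate 2 in 444 (36.4%). All 4 samples had a peak in 168 members (13.8%, interval 11.9 to 15.8%), 3 samples in 513 (42.0%) and 2 samples in 540 (44.2%). The commonest combination, in 442 members (36.2%), was GR replicate 2 with E2A replicate 1, the 2 samples with the longest promoter lists. GR was called in both replicates in 506 members (41.4%), compared with 20.4% of the 3063 GR promoter regions without E2A. E2A was called in both replicates in 343 members (28.1%), compared with 22.5% of the 556 promoter regions with E2A only. Regions called more often were wider, with median widths of 765, 608 and 445 bp for members called in 4, 3 and 2 samples. The membership rested mostly on GR replicate 2 and E2A replicate 1. Without GR replicate 2, 619 members were left, and without E2A replicate 1, 432.

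**Figure D1:**
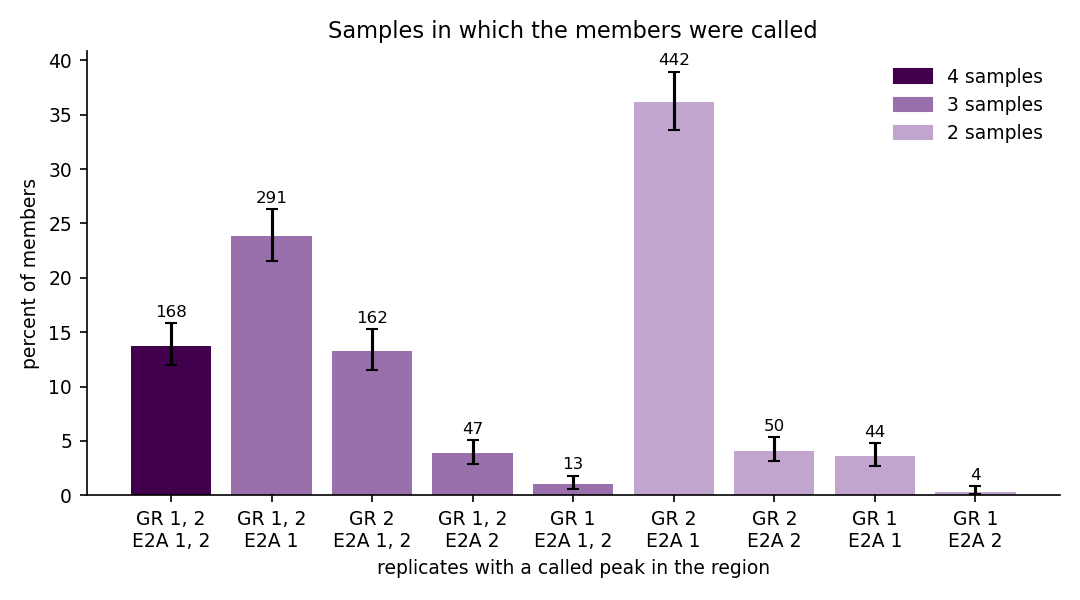
The bars give the percent of the 1221 members called in each combination of replicates, with 95% Wilson intervals, and the number of members above each bar. The bar of GR replicate 2 with E2A replicate 1 alone is the highest (442 members), and 168 members were called in all 4 samples.

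The limits of width and overlap passed through a continuous range of regions. Just inside the width limit lay the regions of Zfp36l2 (1499 bp), Gapdh (1496 bp) and Agpat2 (1493 bp), and just outside it those of Cyp2d22 (1504 bp), Cbs (1516 bp) and Pank1 (1527 bp). Zfp36l2 encodes a protein that speeds mRNA decay, and Agpat2 an enzyme of triglyceride synthesis. In all, 116 shared promoter regions were too wide, including those of the gluconeogenic genes Pck1 and G6pc and of Tat, a tyrosine aminotransferase and classical GR target. The smallest overlaps that counted were 7 bp at Rab1a, 9 bp at Nsd1 and 12 bp at Rab5b. E2A regions missed the GR regions of Cdv3 and Lrrfip2 by 5 bp each and that of Cep350 by 18 bp. A further 34 GR promoter regions had an E2A region within 250 bp but no shared base.

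Within a member, the GR and E2A regions mostly covered the same promoter. The shared stretch had a median of 334 bp (interquartile range 264 to 464 bp), which was a median of 65.6% of the GR region and 86.6% of the E2A region. A single E2A region was met by 1208 members and 2 by the other 13. The E2A region lay wholly inside the GR region in 403 members, and the reverse held in 108. The E2A peaks were annotated as promoter too in 1207 members (98.9%), although the rule did not ask for it. The centres of the 2 regions lay a median of 124 bp apart (57 to 206 bp). GR regions of members had a median width of 561 bp, compared with 407 bp without E2A, and E2A-only promoter regions one of 368 bp. Width took part in the choice of the regions and was not tested.

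The E2A regions lay further upstream than the GR regions they met. A protein-coding start site lay within 1000 bp of the centre of 1156 members, and inside the GR region in 971 (79.5%). The GR centres had a median position of 11 bp downstream of the start site (interquartile range -82 to 106 bp), and 45.9% of them lay upstream. For the E2A centres of members the median position was -66 bp (-183 to 76.5 bp), where negative is upstream, and 62.6% lay upstream. Positions of both centres were counted from the start site nearest to the GR centre. The same order was seen in each pair of samples among members with directly overlapping peaks. E2A lay upstream of GR in 64.9% of 462 members for GR replicate 1 with E2A replicate 1 (interval 60.5 to 69.1%). The share was 59.5% of 200 for GR replicate 1 with E2A replicate 2 (52.6 to 66.1%). With GR replicate 2 it was 65.4% of 1003 for E2A replicate 1 (62.4 to 68.3%) and 65.7% of 373 for E2A replicate 2 (60.7 to 70.3%). The median shifts in these 4 pairs were -54.5, -34, -73 and -68 bp, so their directions did not differ. Centres stand in for summits, which the lists lack, and the shift is small beside the width of the regions. GR-only promoter regions had a median position of 38 bp and E2A-only promoter regions one of -47 bp, each from the start site nearest to its own centre.

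**Figure D2:**
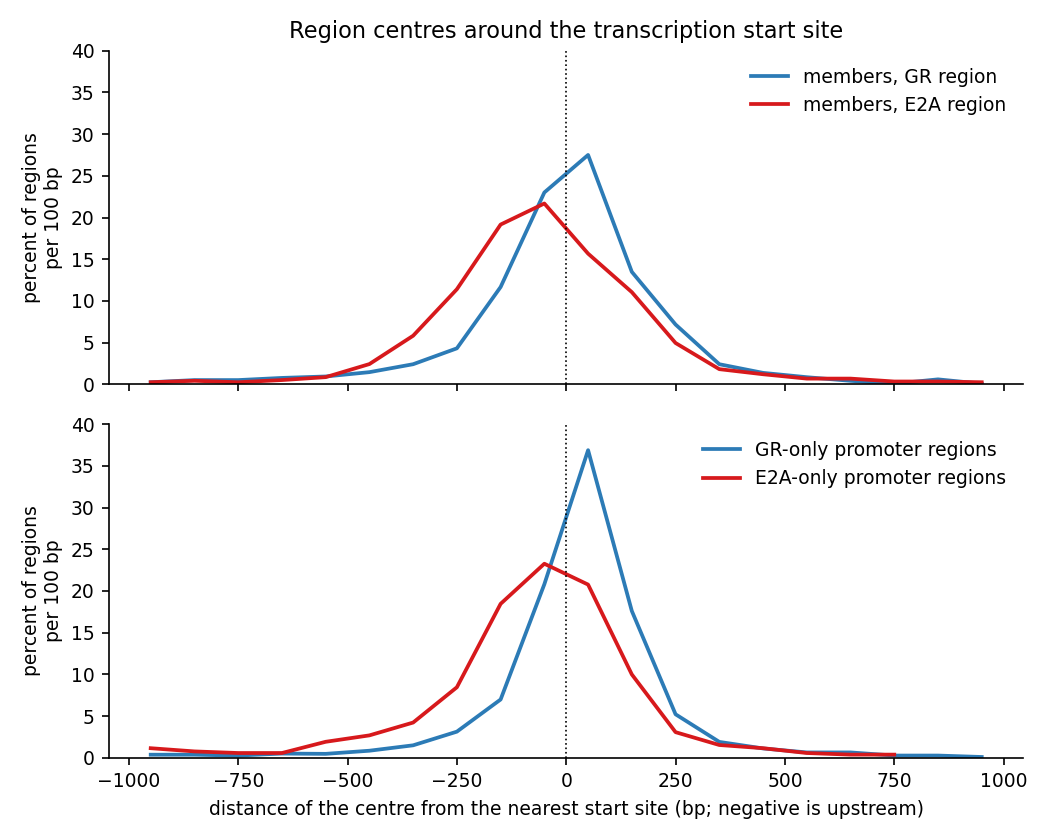
The lines give the percent of region centres in each 100 bp around a protein-coding start site, for the GR and E2A regions of the members (top) and for promoter regions with GR only or E2A only (bottom). In members, both centres are counted from the start site nearest to the GR centre. The other regions are counted from the start site nearest to their own centre. In the members the E2A line lies upstream of the GR line, with medians of -66 and 11 bp.

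Most members were CpG-rich promoters, and their share did not differ past the threshold from that of GR promoters without E2A. A 200 bp window at the centre was called CpG-rich with at least 50% GC and an observed to expected CpG ratio of at least 0.6, which held for 990 members (81.1%, interval 78.8 to 83.2%) and for 81.9% of the GR-only promoter regions (80.5 to 83.2%). The odds ratio (OR) of these shares was 0.946, with p = 0.540 by Fisher's exact test, which was two-sided here and below. Across promoters of all 21911 protein-coding genes with a window the share was 48.0%. At the centres of the E2A regions, 79.2% of the members and 68.0% of the E2A-only promoter regions were CpG-rich (OR 1.79, adjusted exact p = 1.02e-06). Among shared regions outside promoters the share was 8.91%. The median GC content was 69.5% in members, 68.0% with GR only, 64.0% with E2A only and 49.5% in shared regions outside promoters. Divergent gene pairs, with start sites on opposite strands no more than 1000 bp apart, were found at 110 members (9.01%) and at 10.0% of the GR-only promoter regions (OR 0.889, adjusted exact p = 0.398). Examples called in all 4 samples are Hspd1 with Hspe1, the mitochondrial chaperonin pair, whose start sites lie 108 bp apart, and Ppp1r15a with Plekha4, 62 bp apart. The p-values here and below compare regions, which are not replicates of mice.

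Members differed from GR-only promoter regions in 4 of 30 motifs, which is 13.3% of those tested. In 200 bp at the GR centre, the SP/KLF motif GGGGCGGGG was found in 256 members (20.97%, interval 18.8 to 23.3%) and in 13.03% of GR-only promoter regions (11.9 to 14.3%; OR 1.77, exact p = 1.56e-09 after adjustment over all 90 motif tests). The share at all promoters was 12.0%. SP/KLF motifs are read by SP1 and Krüppel-like factors, zinc finger proteins of CpG-island promoters. The CRE, TGACGTCA, bound by CREB and ATF factors, was found in 44 members (3.60%) and in 1.34% of the others (OR 2.76, adjusted exact p = 3.5e-05), with 2.01% at all promoters. NFY, the CCAAT motif, was found in 13.4% against 10.7% (OR 1.30, adjusted exact p = 0.0340), although all promoters had 14.7%. The ETS motif CCGGAAGT was rarer in members, 2.87% against 4.96% (OR 0.565, adjusted exact p = 0.00701), with 4.33% at all promoters. All 4 calls were lost without GR replicate 2. In that setting, 619 members were left and 0 of the 30 motifs passed the threshold (4 at an unadjusted exact p under 0.05), and the odds ratios were 1.40 for SP/KLF, 2.37 for CRE, 1.29 for NFY and 0.785 for ETS. Without E2A replicate 1 the calls of NFY (OR 1.37, adjusted exact p = 0.101) and ETS (OR 0.492, adjusted exact p = 0.0752) were lost. That of NFY was also lost with windows of 400 bp (OR 1.20, adjusted exact p = 0.0624), and that of ETS with centres within 250 bp (OR 0.660, adjusted exact p = 0.0859).

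Grouped by the sample in which GR was called, the SP/KLF odds ratio was 1.92 among regions called in GR replicate 1 and 1.75 in replicate 2. That of the CRE was 3.73 and 2.69. For ETS it was 0.941 and 0.541, so the lower share of ETS in members was seen in replicate 2. The groups overlap, because 506 members and 625 GR-only promoter regions were called in both GR replicates. Similar values in the 2 groups are therefore not agreement of independent samples. Members called in all 4 samples had SP/KLF in 22.6% (16.9 to 29.5%) and the CRE in 4.76% (2.43 to 9.11%). Their NFY share was 20.2% (14.9 to 26.9%), against 11.9% in members called in 2 samples (9.39 to 14.9%). GR centres lay upstream of the start site in 45.9% of members and 35.3% of GR-only promoter regions. Windows reaching 300 bp to each side of the start site, chosen after seeing the data, are centred on that site instead of the peak. The site was the one nearest to the GR centre, so the peak still decided which start site was used. P-values in these windows were adjusted over their 30 motif tests alone. SP/KLF was found in them at 41.8% of 1147 member start sites and 32.7% of 2895 GR-only start sites (OR 1.48, adjusted exact p = 9.58e-07). The CRE was found at 7.59% and 3.07% (OR 2.59, adjusted exact p = 5.52e-08), and ETS at 6.54% and 11.0% (OR 0.567, adjusted exact p = 1.21e-04). NFY, at 31.6% and 28.3%, did not pass the threshold (OR 1.17, adjusted exact p = 0.144). In members, 77.5% of the SP/KLF matches, 80.9% of the CRE matches and 82.1% of the NFY matches in these windows lay upstream of the start site, with median positions of -54, -41 and -79 bp. The layout was similar at GR-only start sites, with 75.2%, 83.3% and 82.0% upstream and medians of -48, -50.5 and -73 bp. Over all protein-coding genes 70.1%, 74.5% and 70.5% lay upstream.

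**Figure D3:**
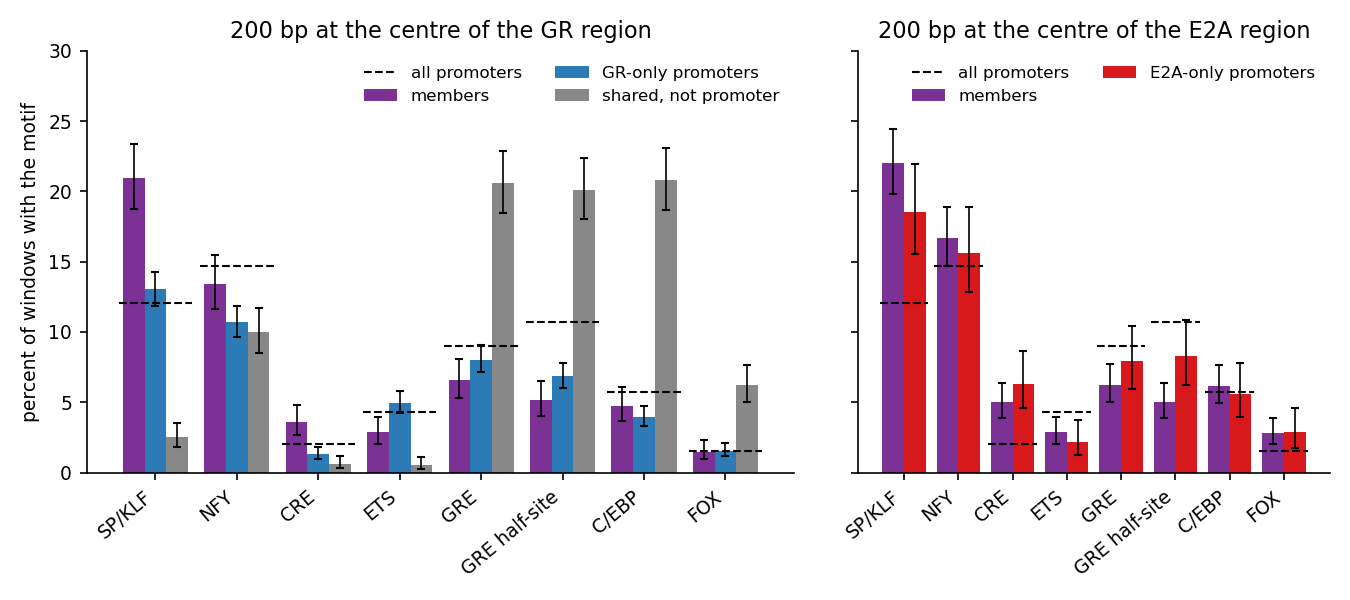
The bars give the percent of 200 bp windows with each motif, with 95% Wilson intervals, at the centres of GR regions (left: members, GR-only promoters and shared regions outside promoters) and of E2A regions (right: members and E2A-only promoters), and the dashed lines give all promoters. SP/KLF stands at 20.97% in members and 13.03% with GR only, while the GRE stands at 6.55% in members and 20.6% outside promoters.

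At the GR centres, the shares of the motifs of the 2 factors themselves did not differ past the threshold between members and GR-only promoter regions. A GRE with up to 2 mismatches was found in 80 members (6.55%, 5.30 to 8.08%) and in 8.03% of GR-only promoter regions (7.12 to 9.05%; OR 0.803, adjusted exact p = 0.226), and at 9.03% of all promoters. Among regions called in GR replicate 1 its shares were 7.94% in members and 13.1% in GR-only promoter regions (OR 0.570). In GR replicate 2 they were 6.38% and 7.44% (OR 0.848), and these overlapping groups were not tested. The odds ratio of the GRE stayed below 1 in all 15 alternatives, without passing the threshold. Over the whole shared stretch, 17 members held a GRE with 1 mismatch to the pattern, 135 one with 2 mismatches and 0 one without a mismatch. Among the 17 were Slc37a4, the glucose-6-phosphate transporter of glucose release, and Crp, an acute-phase protein, both inside exons and named here after the matches were seen. Any E-Box (CANNTG) was found in 39.0% of members and 41.9% of GR-only promoter regions (OR 0.886, adjusted exact p = 0.191), and in 53.4% of all promoters. With promoters defined by the start sites of the reference annotation it passed the threshold (OR 0.847, adjusted exact p = 0.0497). The GRE half-site AGAACA was found in 5.16% and 6.86% (OR 0.739, adjusted exact p = 0.105). It passed the threshold in the windows around start sites (OR 0.709, exact p = 0.00186 after adjustment over 30 motif tests). In the same overlapping groups, its odds ratio was 0.577 for GR replicate 1 and 0.793 for GR replicate 2. For CACGTG, the E-Box of USF, MYC and clock factors, the shares were 6.88% and 5.75% (OR 1.21, adjusted exact p = 0.336). The E-Box CAGCTG had 9.34% and 10.7% (OR 0.859, adjusted exact p = 0.352) and CAGGTG 10.7% and 11.8% (OR 0.897, adjusted exact p = 0.485). Members called in all 4 samples had CACGTG in 10.1% of GR windows (6.41 to 15.6%) and members called in 2 samples in 4.63% (3.16 to 6.74%), and the intervals of these shares overlap. Matches are letters in a window and do not show which factor was bound.

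Against E2A-only promoter regions, compared at E2A centres, members differed in 2 of 30 motifs (6.67%). The GRE half-site AGAACA was found in 5.00% of members and 8.27% of E2A-only promoter regions (OR 0.583, adjusted exact p = 0.0268), and the E-Box CATCTG in 4.91% and 7.91% (OR 0.601, adjusted exact p = 0.0415). Under 11 of 12 alternatives only 1 or 0 motifs passed, and 0 did within bins of 5% GC content or without either E2A replicate (1, 5 and 1 at an unadjusted exact p under 0.05 within GC bins, without replicate 1 and without replicate 2). SP/KLF had 22.03% and 18.5% (OR 1.24, adjusted exact p = 0.213), the CRE 5.00% and 6.29% (OR 0.783, adjusted exact p = 0.416) and any E-Box 43.5% and 46.6% (adjusted exact p = 0.402). Shared regions outside promoters differed from the members in 29 of 30 motifs (96.7%), the exception being CACGTG, with 6.88% in members and 4.92% outside promoters (adjusted exact p = 0.104). The GRE was rarer in members (6.55% against 20.6%, OR 0.271), as was C/EBP (4.75% against 20.8%, OR 0.190) and FOX (1.47% against 6.22%, OR 0.226). SP/KLF was more frequent (20.97% against 2.53%, OR 10.2), as were the CRE (OR 6.05) and NRF1 (OR 5.81). These classes differ in GC content, and within bins of 5% GC 9 motifs passed.

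The members with the longest interval common to all 4 samples were led by Zfp36l2. A common interval was found in 154 of the 168 members called in all samples, with a median of 256.5 bp. At Zfp36l2 the peaks were 1231 and 1442 bp wide in GR replicates 1 and 2 and 1182 and 902 bp wide in E2A replicates 1 and 2, with 853 bp in common. This was the longest common interval. Jun, a subunit of AP-1, had GR peaks of 653 and 1160 bp and E2A peaks of 914 and 883 bp, with 653 bp in common. The first 20 ended at 436 bp with Cebpb, a hepatic C/EBP factor, whose GR peaks were 1238 and 1255 bp wide and E2A peaks 647 and 745 bp. Regulators of chromatin and transcription among them were Ep300, a histone acetyltransferase, with GR peaks of 691 and 804 bp and E2A peaks of 690 and 472 bp. Kmt2a had peaks of 437, 586, 875 and 519 bp in the same order, and Brd2, a reader of acetylated histones, of 680, 1209, 852 and 452 bp. Hes1, a bHLH repressor of the Notch pathway, had peaks of 695, 488, 602 and 483 bp. In these genes GR replicate 2 and E2A replicate 1 were mostly wider than their counterparts, with exceptions such as GR at Hes1 and E2A at Cebpb. Metabolic enzymes among the 20 were Hal, which begins histidine breakdown (705, 806, 648 and 446 bp), Ogdh, a subunit of a citric acid cycle enzyme (548, 632, 897 and 658 bp), and Hagh, an enzyme of methylglyoxal detoxification (739, 903, 883 and 513 bp). Cox20, Tbl1xr1, Klf3, Pafah1b1, Bnip3, Pnrc1, Ywhaz, Tex14, Sp3os and 5031425E22Rik make up the rest.

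**Figure D4:**
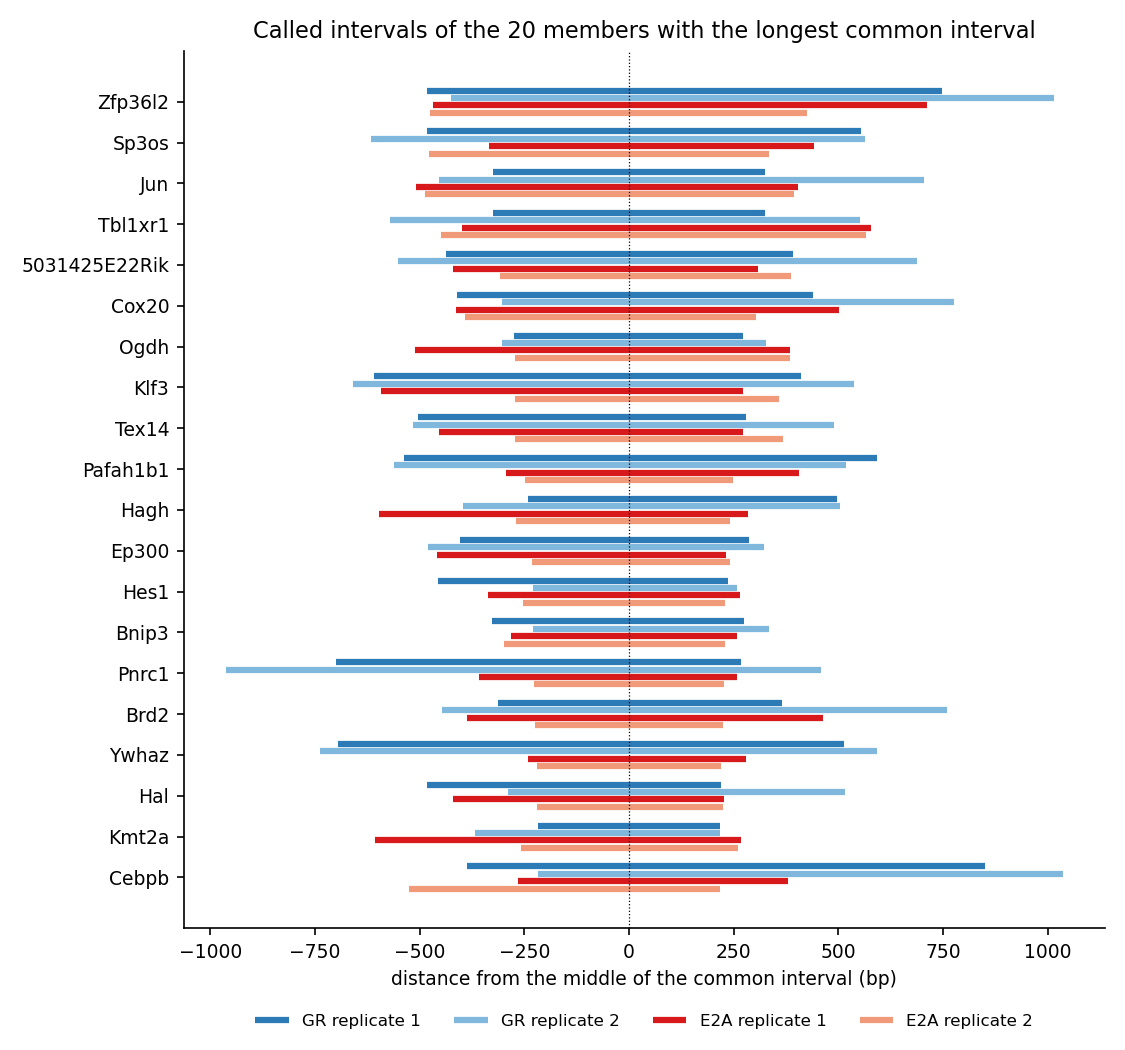
Each row is a member, and the bars give the peak called in GR replicates 1 and 2 and E2A replicates 1 and 2, as distance in bp from the middle of the interval common to all 4. The common interval runs from 853 bp at Zfp36l2 to 436 bp at Cebpb.

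Counted by gene, the members stood at 1125 of 21924 protein-coding genes, which is 5.13%, and at 28.6% of the 3936 genes with a GR promoter region. Both shares are the background for the gene groups below, and the second takes account of which promoters GR met at all. Of 26 gene groups, 24 had a larger share of members than all genes, and 18 a larger share than genes with a GR promoter region. Of the 24, 19 had an interval wholly above the share of all genes. The groups were chosen with earlier results of these data known and were not tested.

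**Figure D5:**
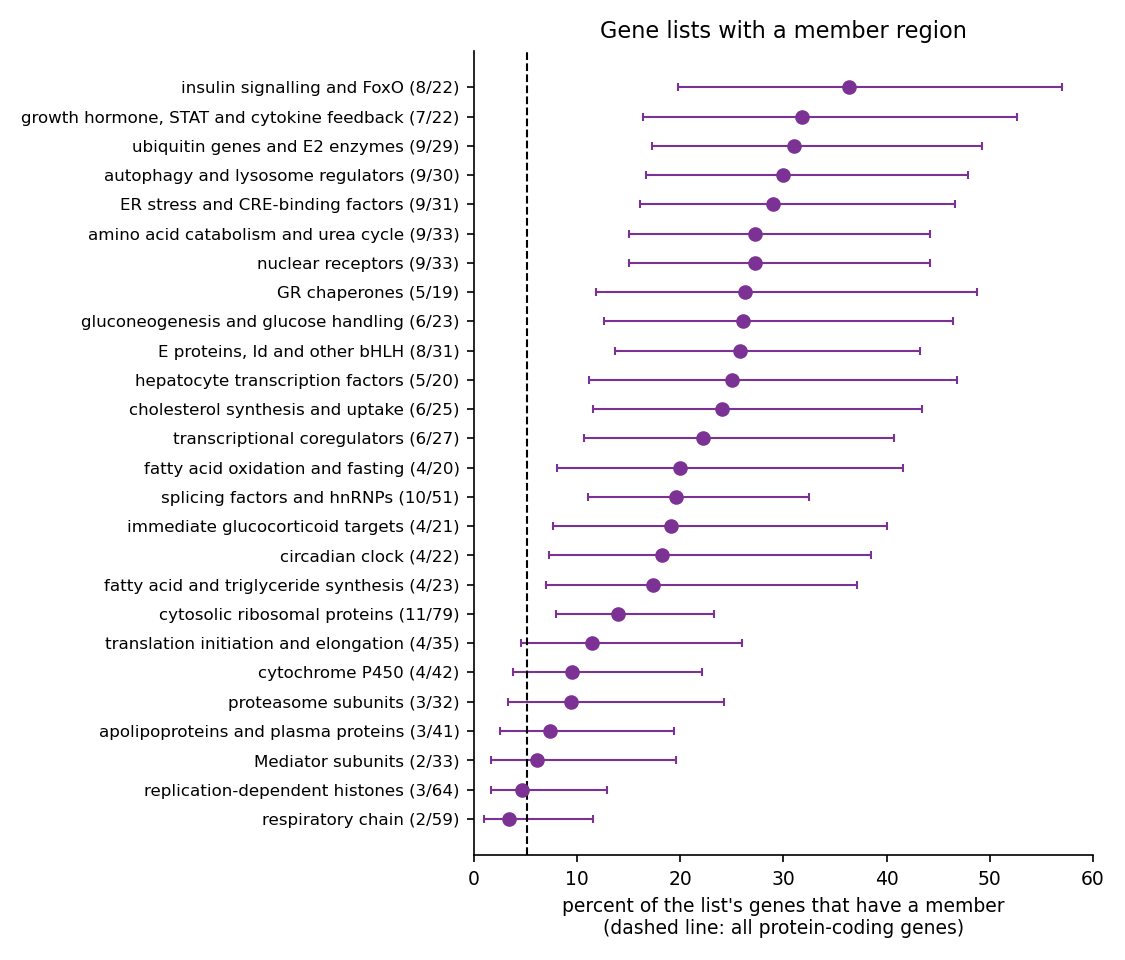
Each point gives the percent of a group's genes that have a member, with its 95% Wilson interval and the counts beside the name, and the dashed line gives 5.13%, the share of all protein-coding genes. Insulin signalling and FoxO had 8 of 22 genes and respiratory chain subunits 2 of 59.

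Of 21 immediate glucocorticoid targets 4 had a member, which is 33.3% of those with a GR promoter region. Per1, which is both a clock repressor and a GR target, was called in all 4 samples, with widths of 568 and 731 bp for GR and 498 and 355 bp for E2A, and its GR and E2A centres lay at -105 and -188 bp from the start site. Klf9 had widths of 776 and 965 bp for GR and 603 and 449 bp for E2A. Nfkbia, the inhibitor of NF-kB, had 1025 and 1039 bp for GR and 516 and 332 bp for E2A. Zbtb16, a zinc finger repressor, was the other. In the clock group 4 of 22 genes had a member (33.3% of the 12 with a GR promoter region), namely Per1, Per3, Nr1d2 and Csnk1d. Nr1d2, the repressor REV-ERB beta, had a GR peak of 1320 bp in replicate 2 and E2A peaks of 651 and 329 bp, with no GR peak in replicate 1. Of 19 chaperones of GR 5 had a member (41.7% of the 12 with a GR promoter region). Hsp90ab1, the constitutive HSP90, was called in all samples, but its GR peak was 257 bp wide in replicate 1 and 1334 bp in replicate 2, and no base was common to all 4.

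The gluconeogenesis and glucose group had 6 of 23 genes with a member (46.2% of those with a GR promoter region), and 0 of them were called in all 4 samples. They were Pcx, the pyruvate carboxylase that begins gluconeogenesis, the glucose transporter Slc2a2, the pyruvate kinase Pklr, the glycogen genes Gys2 and Ugp2, and Slc37a4. Pklr had GR peaks of 473 and 1482 bp and an E2A peak of 269 bp in replicate 1, with none in E2A replicate 2. Slc37a4 was 1 of 31 genes with 2 members. In 1 of them it had GR peaks of 287 and 706 bp and an E2A peak of 495 bp in replicate 1 alone. Its GRE with 1 mismatch lay in the other member, at chr9:44397996-44398590. The insulin and FoxO group had 8 of 22 genes (61.5% of those with a GR promoter region), among them the receptor substrates Irs1 and Irs2, the kinases Gsk3b and Sik1 and the factor Foxo3. Pik3r1 was called in all samples with 775 and 683 bp for GR and 690 and 350 bp for E2A, and so was Trib1, a pseudokinase, with 609 and 565 bp for GR and 1039 and 394 bp for E2A. Irs1 had GR peaks of 436 and 754 bp, an E2A peak of 528 bp in replicate 1 and none in replicate 2. Its GR centre lay at 153 bp and its E2A centre at -109 bp from the start site.

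Of 25 cholesterol genes 6 had a member (31.6% of those with a GR promoter region), and 0 were called in all samples. Srebf2, the main transcriptional activator of cholesterol synthesis, had GR peaks of 461 and 581 bp and an E2A peak of 302 bp in replicate 1 only. At Hmgcs1, an early enzyme of the pathway, GR was called in replicate 2 alone (674 bp) and E2A in both replicates (284 and 280 bp), and the shared stretch was 53 bp. Pmvk, Sqle and Insig2 also had a member. Fatty acid and triglyceride synthesis had 4 of 23 genes (30.8% of the 13 with a GR promoter region). Of these Fads2, a desaturase of polyunsaturated fatty acids, was called in all samples with 426 and 1241 bp for GR and 1330 and 449 bp for E2A. Acly, Elovl6 and Agpat2 were called in fewer. Fatty acid oxidation had 4 of 20 genes (40% of the 10 with a GR promoter region), with the thiolases Acaa1a and Acaa2 called in all samples.

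Of 33 nuclear receptors 9 had a member (47.4% of those with a GR promoter region), and 0 were called in all samples. They include the retinoid receptors Rara, Rxra and Rxrb, the lipid sensors Ppard and Pparg and the bile acid repressor Nr0b2. Rxra had GR peaks of 384 and 1269 bp and an E2A peak of 282 bp in replicate 1. Among E proteins, Id and other bHLH genes 8 of 31 had a member (53.3% of the 15 with a GR promoter region). These were Hes1, Usf2, Tfeb, Srebf2, Mxd1, Hif1a, Arnt and Ahr. Tfeb, which drives lysosomal genes, had GR peaks of 757 and 392 bp and an E2A peak of 972 bp in replicate 1 alone. Hepatocyte factors had 5 of 20 (45.5% of the 11 with a GR promoter region), with Cebpb and Tcf7l2, a WNT effector, called in all samples. The group of ER stress and CRE-binding factors had 9 of 31 (52.9% of the 17 with a GR promoter region), including Atf1, Atf3, Crem and Ddit3. Atf3 had 325 and 438 bp for GR and 795 and 353 bp for E2A. Coregulators had 6 of 27 genes (35.3% of the 17 with a GR promoter region), among them Ep300, the p160 coactivator Ncoa2, Hdac1 and Smarca4. Mediator subunits had 2 of 33 (20% of the 10 with a GR promoter region), Med21 and Cdk19.

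Amino acid breakdown and the urea cycle had 9 of 33 genes (47.4% of those with a GR promoter region). Fah, the last enzyme of tyrosine breakdown, had 1178 and 1032 bp for GR and 1131 and 290 bp for E2A. Gpt2, an alanine aminotransferase, had 719 and 768 bp for GR and 425 and 251 bp for E2A. Ubiquitin genes and E2 enzymes had 9 of 29 (64.3% of the 14 with a GR promoter region, the largest such share among the 26 groups). Autophagy and lysosome regulators had 9 of 30 (50% of the 18 with a GR promoter region). Ube2b was called in all samples, with 580 and 1196 bp for GR and 468 and 790 bp for E2A. Growth hormone, STAT and cytokine feedback genes had 7 of 22 (41.2% of the 17 with a GR promoter region), including the receptor Ghr, Jak1, Socs3 and Cish. Splicing factors had 10 of 51 (32.3% of the 31 with a GR promoter region), with Srsf2 and Ddx5 called in all samples. Cytosolic ribosomal proteins had a GR promoter region at 56 of 79 genes and a member at 11, of which 0 were called in all samples. The share with a member was 13.9% of the 79 (7.96 to 23.2%), above the 5.13% of all genes. It was 19.6% of the 56, below the 28.6% of genes with a GR promoter region, and no interval was computed for that share. Translation factors had 4 of 35, proteasome subunits 3 of 32 and replication-dependent histones 3 of 64. Of the genes with a GR promoter region in these groups, 23.5%, 25% and 15.8% had a member. Respiratory chain subunits had 2 of 59 (11.1% of the 18 with a GR promoter region), Ndufa4 and Atp5a1, and 6 with E2A only. Histone and ribosomal protein genes have near-identical copies, and reads were kept only where they mapped uniquely, so absent regions there are uncertain.

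Among liver secretory and detoxification genes, plasma proteins had 3 of 41 genes with a member (7.32%, and 23.1% of those with a GR promoter region), namely Apoa2, Plg and Rbp4. Cytochrome P450 genes with their reductase had 4 of 42 (9.52%, and 26.7% of those with a GR promoter region), so both groups stood above the share of all genes and below that of genes with a GR promoter region, with intervals that include the share of all genes. Rbp4, the retinol carrier of plasma, was called in all samples, with 577 and 772 bp for GR and 385 and 549 bp for E2A, though with no base common to all 4. Plasminogen (Plg) had a GR peak of 286 bp in replicate 2 alone and E2A peaks of 424 and 546 bp. Cell type markers were met by 0 of 66 genes in 7 lists, for hepatocytes, Kupffer cells and macrophages, endothelial cells, stellate cells, cholangiocytes, B cells and T cells. With 3 counts as the limit that a count of 0 allows, the share could be up to 4.55%. That limit is not a Wilson interval, and the markers were not tested against the 5.13% of all genes. Of these 66, 3 had a GR promoter region under the width limit, 1 each of the hepatocyte, macrophage and cholangiocyte lists, so the lists cannot tell which cells the members come from. The hepatocyte marker Tat belongs to the promoters that were too wide.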

How the data were processed

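Wild-type livers of mice were subjected to ChIP-Seq for GR and E2A with 8 µg of antibody per ChIP and 2 samples each. The labels do not say whether samples of a ChIP come from separate mice, and the study calls them biological replicates. It states that GR and E2A were studied in the same livers, but no label ties a GR sample to an E2A sample. The submitters' processing notes name BWA 0.7.13, Picard 1.119, MACS2 2.1.0 and mm10, and the study's methods give other versions of Picard and MACS2. The authors called peaks per sample, from uniquely mapped read pairs that had been downsampled to 18 mio in the GR libraries and 22 mio in those of E2A. Control, peak threshold and annotation tool are not given in the sources used here. The deposited values are peak start, end and width in bp, with the nearest gene and its feature, and hold no score, count or height. The bed lists hold the same intervals and were not used.

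Regions were merged and classed as stated in the report. Windows of 200 bp lay at region centres. Sequence came from the RefSeq FASTA of GRCm38.p6, which has the coordinates of mm10, and start sites from basic protein-coding transcripts of GENCODE vM21, with 1 window for each of 21911 genes as all promoters. The GRE was searched with a pattern that allows alternative letters at some positions, and its mismatches are counted against that pattern. Motifs were searched on both strands: GRE and DR1 with up to 2 mismatches, AGAACA (GRE half-site, which the GRE can contain), CAAAGTCCA (HNF4), TCAAGGTCA (ERR), TTGCNNAA (C/EBP), TGTTTAC (FOX), TTCNNNGAA (STAT5), TGACTCA (AP-1, whose middle letter could be G), TGACGTCA (CRE), ATTGATT (HNF6, where the last T and the third letter could each be C), GCGCATGC (NRF1), CCGGAAGT (ETS), GGGGCGGGG (SP/KLF), AAGATGGC (YY1), GCCAATC (NFY, where the first letter could be A and the last one G), TTTCCCGC or TTTGGCGC (E2F), CTCGCGAG (ZBTB33), TATAAA for the TATA box, CANNTG (E-Box) and its 10 cores, which are each part of CANNTG.

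Differences between shares were tested by Fisher's exact test (two-sided) and adjusted by the method of Benjamini and Hochberg over the 90 motif tests and, separately, over the 6 tests of CpG-rich and divergent promoters. Alternatives that compared members with GR-only promoter regions alone, such as windows around start sites, were adjusted over 30 motif tests. Stratified odds ratios are Mantel-Haenszel estimates over bins of 5% GC or 200 bp width. Genes were named by rule: the 20 members with the longest interval common to all 4 samples, members of the gene groups called in the most samples, genes the study names and regions nearest to the limits. The members, groups and rules were chosen with earlier results of these data known. Alternatives changed the width limit, overlap, replicates, promoter definition, window and mismatches, and left out 1 sample at a time, and 1 alternative, windows around start sites, was added after seeing the data. Simulated data served to test the code. Software was Python 3.11.15 with scipy 1.17.1, numpy 2.4.6, pysam 0.24.0, statsmodels 0.14.6 and matplotlib 3.10.9.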

Additional observations from a re-analysis of the deposited data

How the results depend on the processing

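The number of members was 163 when only regions called in both replicates of both ChIPs counted, and from 432 to 1165 when 1 sample was left out, lowest without E2A replicate 1 (432) and next without GR replicate 2 (619). The share of GR promoter regions with E2A was 27.0% with a width limit of 1000 bp, 25.9% where 50% of the shorter region had to be shared, 23.5% with centres within 250 bp, 14.4% with regions called in both replicates and from 10.1 to 42.8% with 1 sample left out. The highest of these values was that without GR replicate 2 and the lowest that without E2A replicate 1. The share of members called in all 4 samples was 11.1% at the 1000 bp limit. The centres lay a median of 119.5, 111.5, 99 and 118 bp apart under the first 4 of these settings and 118 to 124 bp apart with 1 sample left out. The CpG-rich odds ratio against GR-only promoter regions passed no threshold under 13 alternatives and was above 1 with the reference annotation (1.01), with windows of 400 bp (1.03) and within the range of 0.915 to 1.02 with 1 sample left out. That of divergent promoters was 1.502 with regions called in both replicates. Against GR-only promoter regions the number of motifs that differed was 1 with regions called in both replicates and 0 to 4 with 1 sample left out, against E2A-only promoter regions 0 within GC bins, 1 under 6 other settings and 0 to 1 with 1 sample left out, and against shared regions outside promoters 9 with both replicates, 9 within GC bins and 21 to 27 with 1 sample left out.

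Of single motifs, ETS reached an odds ratio of 1.10 and the GRE half-site 1.06 against GR-only promoter regions with regions called in both replicates, and any E-Box ranged from 0.861 to 1.02 with 1 sample left out, the highest without GR replicate 2. Against E2A-only promoter regions the GRE half-site reached 1.55 with both replicates and ranged from 0.442 to 1.16 with 1 sample left out (1.16 without GR replicate 2). SP/KLF fell to 0.986 within GC bins and ranged from 0.915 to 1.49 (0.915 without GR replicate 2), and the CRE rose to 1.02 with centres within 250 bp and ranged from 0.576 to 1.01 (1.01 without E2A replicate 2). None of these reversed values passed its threshold. The causes were not tested. SP/KLF and the CRE stayed above an odds ratio of 1 against GR-only promoter regions in all 14 alternatives and passed the threshold in 12, failing without GR replicate 2 and with both replicates. No paired analysis was possible because the results are counts of regions and come from no test across samples, and because no label ties a GR sample to an E2A sample, although the study used the same livers for both ChIPs. Without read counts or heights, depth sets an unknown limit on which peaks were called.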

Other observations

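The members were spread over all autosomes. On each of them between 23.8% (chromosome 19) and 33.7% (chromosome 1) of the GR promoter regions met an E2A region, whereas 0 of the 24 GR promoter regions on chromosome X did (interval 0 to 13.8%). MicroRNAs were the nearest annotated gene of 11 members. Of 1195 nearest-gene symbols, 31 had 2 members, among them Klf3, Cth, a hydrogen sulphide-producing enzyme of cysteine synthesis, Hspa8, the constitutive HSP70, the chromatin reader Brd2, the nuclear factor I genes Nfib and Nfic, Rheb, the activator of mTORC1, and P4hb, a protein disulphide isomerase. These 8 were chosen after the list was seen.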
